A study of Homo sapiens with 6 samples.

Results

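REST (NRSF/REST, RE1-silencing transcription factor) and 37 genes that work with it or are known targets of it were followed in adrenocortical cancer cells with and without induction of the nuclear receptor SF-1. The 38 genes were listed by name, as REST, 7 of its corepressors and 30 neuronal genes. No cut on their values was used, but earlier results of these data were known when they were listed. All 38 had a probe set among the 19775 genes measured. H295R/TR SF-1 is a subclone of H295R, a human adrenocortical carcinoma line, and doxycycline switches on a copy of SF-1 in it. RNA was taken after 72 h from 3 cultures labelled basal, with no doxycycline, and from 3 labelled Dox, with doxycycline at 1 µg/mL, and was hybridised to HG-U133 Plus 2.0 arrays. Every culture came from the same subclone, and no array of cells lacking the inducible gene was part of the comparison, so the actions of doxycycline and of SF-1 cannot be told apart here. Arrays are named by their label and by order of deposition, and the name gives the label only.

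REST is a zinc finger protein that binds a long DNA element, RE1, near neuronal genes and silences them in cells that are not neurons. It holds SIN3 with histone deacetylases at one end and the CoREST proteins RCOR1 and RCOR2 with the histone demethylase KDM1A at the other, and the histone methyltransferase EHMT2 joins these complexes. Endocrine cells share parts of the neuronal programme with neurons, among them secretory granule proteins and the proteins that fuse vesicles with the membrane. The study asks how SF-1 and REST act together on gene expression, which makes the level of REST and of its classical targets at both doses of SF-1 the question here.

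The element itself can be seen at some of these genes. Core RE1 letters, CAGCACC followed by any 2 bases and GGACAGC, were searched on both strands of RefSeq promoter windows of build GRCh38.p14, which run from 250 bases before to 50 bases after a start site. Of the 38 genes, 29 had a window. At most 1 mismatch in the 14 letters was found in 3 of these 29 genes, GRIA2, SYN1 and VGF, and in 39 of all 27305 genes with a window (0.143%). These 3 are shown because they are the closest matches in the group to the element that REST binds. Capitals mark the letters that match, and each site is written 5′ to 3′ on the strand that carries it.
GRIA2: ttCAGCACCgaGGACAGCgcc
SYN1: ttCAGCACCgcGGACAGtgcc
VGF: ttCAGCACgctGGACAGCgcc
In GRIA2 all letters matched. That stretch is chr4:157220388-157220408 on the minus strand, opposite to the gene, and its element runs from base -228 to base -213 of an annotated start site, inside the span of GRIA2 (chr4:157220120-157366075). SYN1 had 1 mismatch at chrX:47620070-47620090 on the minus strand, the strand of the gene, from base -231 to -216 and outside the span of SYN1 (chrX:47571901-47619857). The VGF stretch, also with 1 mismatch, is chr7:101165559-101165579 on the plus strand, opposite to the gene, and runs from base -7 to base 9, across a start site inside the span of VGF (chr7:101162509-101169952). Whether these bases are exonic was not read here. The SF-1 letters AAGGTCA, 1 exact form of its site, which do not overlap those of the element, were in 0 of the 29 genes and in 4.8% of all genes. At that share 29 genes are too few for 0 to be read as a lack. The windows also differed in GC content, with a median of 65.0% in the 29 genes and 58.3% in all genes. A match is a stretch of letters and not a bound site, and no match says only that the letters were not in this window.

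The 6 arrays did not fall apart by their labels. Basal 1 and Dox 1 differed by 2-fold in 0 of 54613 probe sets, as did basal 3 and Dox 2, while the other pairs differed by 2-fold in 525 to 2264. Basal 1 and Dox 1 were also the only arrays with their style of sample title, and the labels do not say whether this marks a batch. Levels seen in basal 1 and Dox 1 alone cannot be told apart from a difference that goes with the title style. Basal 2 and Dox 3 stood apart in another way, with an interquartile range of log2 values of 3.32 and 3.38 against 3.53 to 3.56 in the others. Both are called the narrow arrays here. NR5A1, which encodes SF-1, was at a log2 signal of 5.84, 5.92 and 6.30 in basal 1 to 3 and at 5.55, 6.21 and 6.41 in Dox 1 to 3, a difference of 0.03 ± 0.24 (SE, exact permutation p = 1, n = 3 each). Whether its probe set reads the introduced copy is not given in the sources used here. The study reports SF-1 overexpression after doxycycline from an immunoblot of the protein, which these arrays do not measure. Of 9 measured adrenocortical markers 5 were above the median of every array, with STAR at 10.73 to 11.59 and CYP11A1 at 10.49 to 11.90 against a median over the arrays of 5.58, and INHA was below it in all. MC2R, also adrenocortical, was below the median in 5 of 6 arrays. Among markers of the adrenal medulla, 6 of 9 measured, TH and DBH included, lay below the median of every array. The others, PNMT, PHOX2A and CARTPT, lay above it in every array.

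Because each near-identical pair holds both labels, differences are given over all 6 arrays and again without basal 3 and Dox 1, and without basal 1 and Dox 2, each time with the narrow arrays as a block. The choice of these 4-array comparisons came from the data and leaves 1 residual degree of freedom, so their p-values are not independent evidence. Neither choice is preferred by the labels. The values do not show whether each array carries its right label, and every difference given here rests on the labels as deposited, so its size and direction could change if a label were wrong. Values are log2 signals, differences are Dox minus basal on the log2 scale with the SE of the fit, and SD is over the 3 arrays of a label. Adjusted p-values are those of limma over all 19775 genes. Total RNA cannot tell fewer expressing cells from less RNA per cell.

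In the labelled comparison none of the 38 genes passed the adjusted threshold of 0.05, and the same was true of all genes, where 0% were called. At an unadjusted p under 0.05 there were 0 of the 38 and 109 of all genes. The study called genes at a 2-fold difference with p under 0.05 and reports both raised and lowered genes on SF-1 overexpression. With the limma p, 0 genes met those thresholds here in either direction. The study does not name the test behind its p. Differences ran from -0.28 in RAB3C to 0.19 in HDAC1, with a median of -0.01 over the 38 genes and 0.00 over all genes. In the brightest probe set of each gene, 0 of the 38 had labelled groups that did not overlap, where 1.49% of all genes had every Dox array above every basal array and 1.68% had every Dox array below. SEs reached 0.73, so a change as large as 2-fold in the most variable of these genes would not have been detectable.

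Without basal 3 and Dox 1, 2 of the 38 genes were called higher in Dox, HDAC1 and TUBB3, where 3.42% of all genes were. Another 2 were called lower, CHGB and RAB3C, where 3.58% of all genes were. The median difference was 0.01 over the 38 genes and -0.01 over all genes. With no block for the narrow arrays 0 of the 38 passed, with a lowest adjusted p of 0.628. Without basal 1 and Dox 2 again 0 passed, and differences ran from -0.27 in BDNF to 0.28 in CELSR3. CHGB and HDAC1 there had the opposite sign, by less than their errors.

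**Figure D1:**
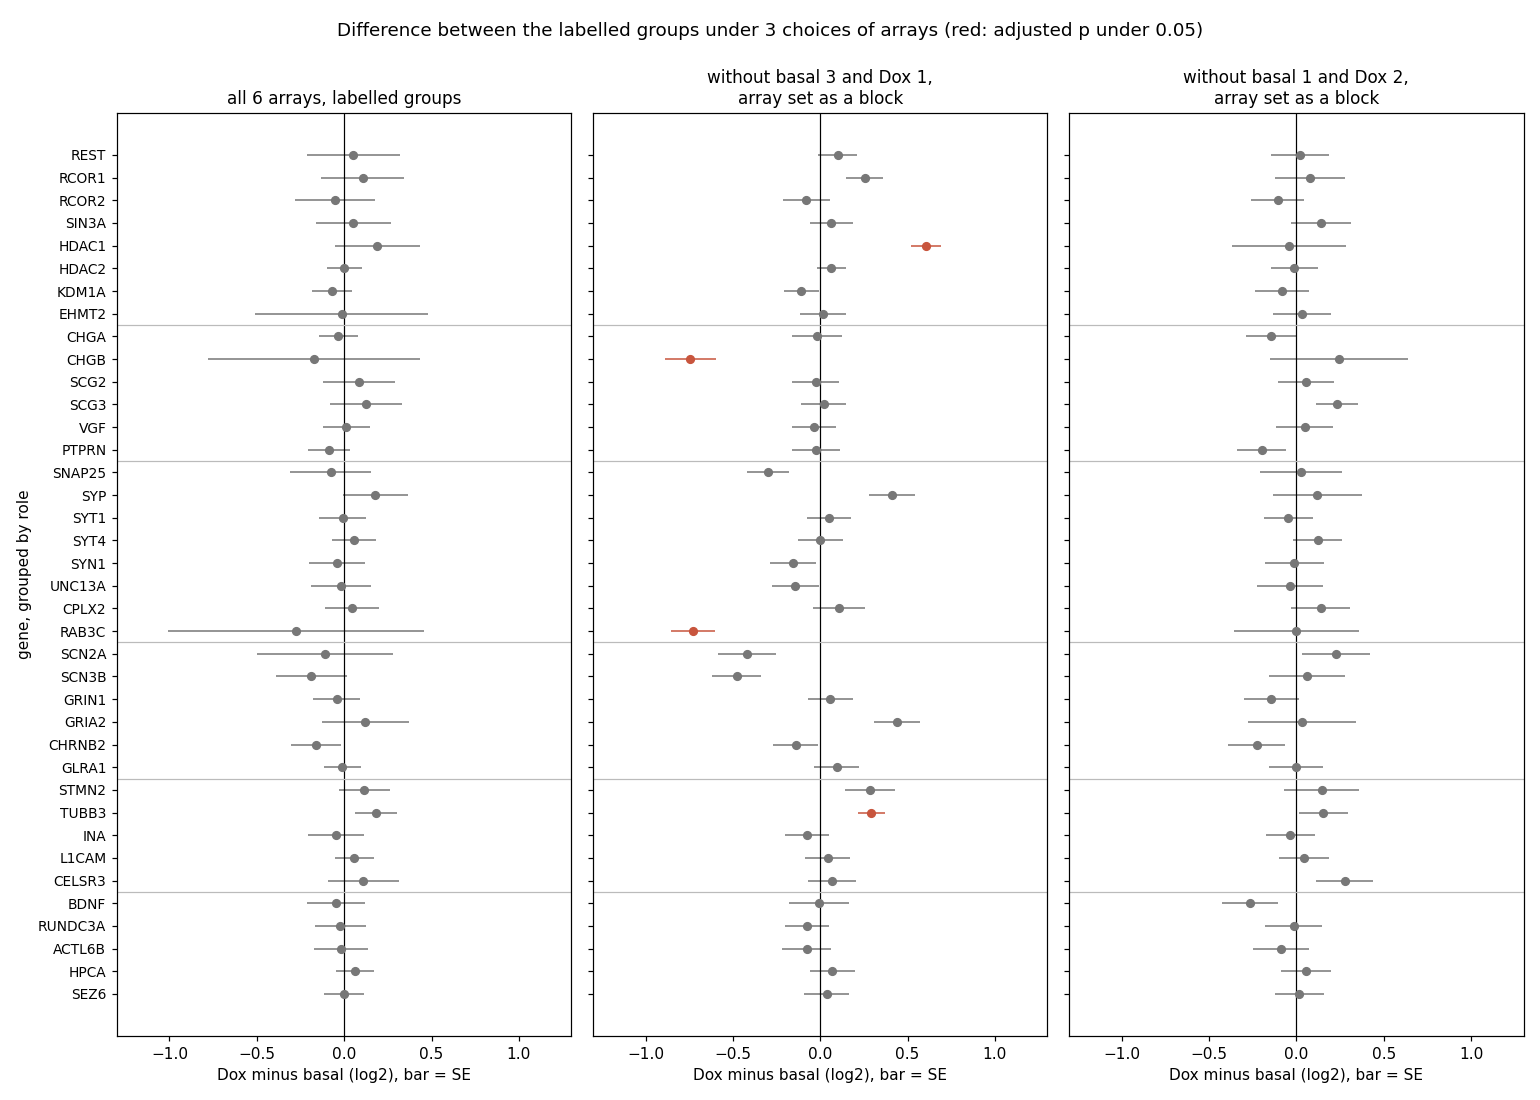
Difference between the labelled groups (x axis, Dox minus basal, log2) for each of the 38 genes (y axis, grouped by role) over all 6 arrays, without basal 3 and Dox 1, and without basal 1 and Dox 2. Points are fitted differences, bars are SEs, and red marks an adjusted p under 0.05. HDAC1 and TUBB3 on the right and CHGB and RAB3C on the left are red in the middle panel, and no gene is red in the outer panels.

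REST was read by 3 probe sets. Its brightest, 212920_at, was at 9.32, 8.71 and 9.46 in basal 1 to 3 and at 9.42, 9.43 and 8.79 in Dox 1 to 3. The narrow arrays lay lowest, 1 from each label, with the others close together near the top, so that the groups overlapped. The labelled difference was 0.05 ± 0.26 (exact permutation p = 0.7, n = 3 each). Both 4-array comparisons gave small values, 0.10 ± 0.11 without basal 3 and Dox 1 and 0.02 ± 0.17 without basal 1 and Dox 2.

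The other REST probe sets did not follow the brightest. Probe set 204535_s_at was at 6.38, 6.43 and 6.52 in basal 1 to 3 and at 6.29, 6.27 and 6.56 in Dox 1 to 3, a difference of -0.07 ± 0.13 (exact permutation p = 0.6, n = 3 each). Here the narrow arrays were not low. Probe set 204536_s_at was at 5.40, 5.44 and 5.64 in basal 1 to 3 and at 5.40, 5.37 and 5.06 in Dox 1 to 3. All 3 Dox arrays were below all 3 basal arrays, by less than 0.01 between the closest pair, and the difference was -0.22 ± 0.13. The exact permutation p of 0.1 is the smallest that 3 against 3 arrays allow, and the adjusted p was 1. This probe set was below the array median in 5 of 6 arrays, so that a level above background was not shown for it. The sign of the REST difference was thus not the same in all its probe sets, and no direction was shown. No probe set of it was called in any of the 3 comparisons.

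Of the 7 corepressor genes, HDAC1 alone was called, in 1 of the 4-array comparisons. HDAC1, a histone deacetylase of the SIN3 and CoREST complexes, was at 10.87, 10.92 and 11.47 in basal 1 to 3 and at 10.83, 11.52 and 11.48 in Dox 1 to 3. It fell into a low level in basal 1, basal 2 and Dox 1 and a high level in basal 3, Dox 2 and Dox 3, with each label on both sides. The labelled difference was 0.19 ± 0.24. It was 0.61 ± 0.09 without basal 3 and Dox 1 (adjusted p = 0.00106), which is 1.52-fold, and without basal 1 and Dox 2 it was -0.04 ± 0.33. NR5A1 was likewise lowest in basal 1, basal 2 and Dox 1, and its difference without basal 3 and Dox 1 was 0.43 ± 0.13 (adjusted p = 0.0808), a relation whose part in the HDAC1 result was not tested.

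The paralogue HDAC2 moved little, between 11.30 and 11.53 in all 6 arrays, with a labelled difference of 0.00 ± 0.10. KDM1A, which removes methyl groups from histone H3 lysine 4, was nearly as flat, between 10.09 and 10.31 (difference -0.07 ± 0.12). Neither was called in any of the 3 comparisons.

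RCOR1, the scaffold that ties KDM1A to REST, was at 10.05, 9.40 and 10.19 in basal 1 to 3 and at 9.99, 10.21 and 9.74 in Dox 1 to 3. As in the brightest REST probe set the narrow arrays were lowest, and the labelled difference was 0.11 ± 0.24. Its value without basal 3 and Dox 1 was 0.26 ± 0.11, with an adjusted p of 0.235. RCOR2, a second CoREST protein, ranged from 5.92 to 6.62 (difference -0.05 ± 0.23), and SIN3A, the scaffold for the histone deacetylases, from 8.65 to 9.35 (difference 0.05 ± 0.21). Both were lowest in the narrow arrays too. In all, basal 2 and Dox 3 lay below the 4 other arrays in 5 of the 8 genes of this group, REST, RCOR1, RCOR2, SIN3A and HDAC2, where 26.6% of all genes did. For REST this held in the brightest of its 3 probe sets and not in the others. Dimmer probe sets of RCOR1 (237041_x_at) and SIN3A (238189_at) lacked it too. The share of all genes was not matched for signal level, and the narrow arrays were defined by their spread of values.

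EHMT2, a histone H3 lysine 9 methyltransferase, showed the opposite in its brightest probe set, 202326_at. That probe set was at 6.77, 7.93 and 6.64 in basal 1 to 3 and at 6.57, 6.66 and 8.06 in Dox 1 to 3. Only the narrow arrays were high, by more than 1 log2 unit. The labelled difference was -0.02 ± 0.50, with an error set by those 2 arrays, and with them as a block it was 0.01 ± 0.13 without basal 3 and Dox 1. Probe set 207484_s_at of EHMT2 stayed between 6.84 and 7.11 and 229079_at between 5.86 and 6.22, so the high values were not seen by the other probe sets of the gene.

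**Figure D2:**
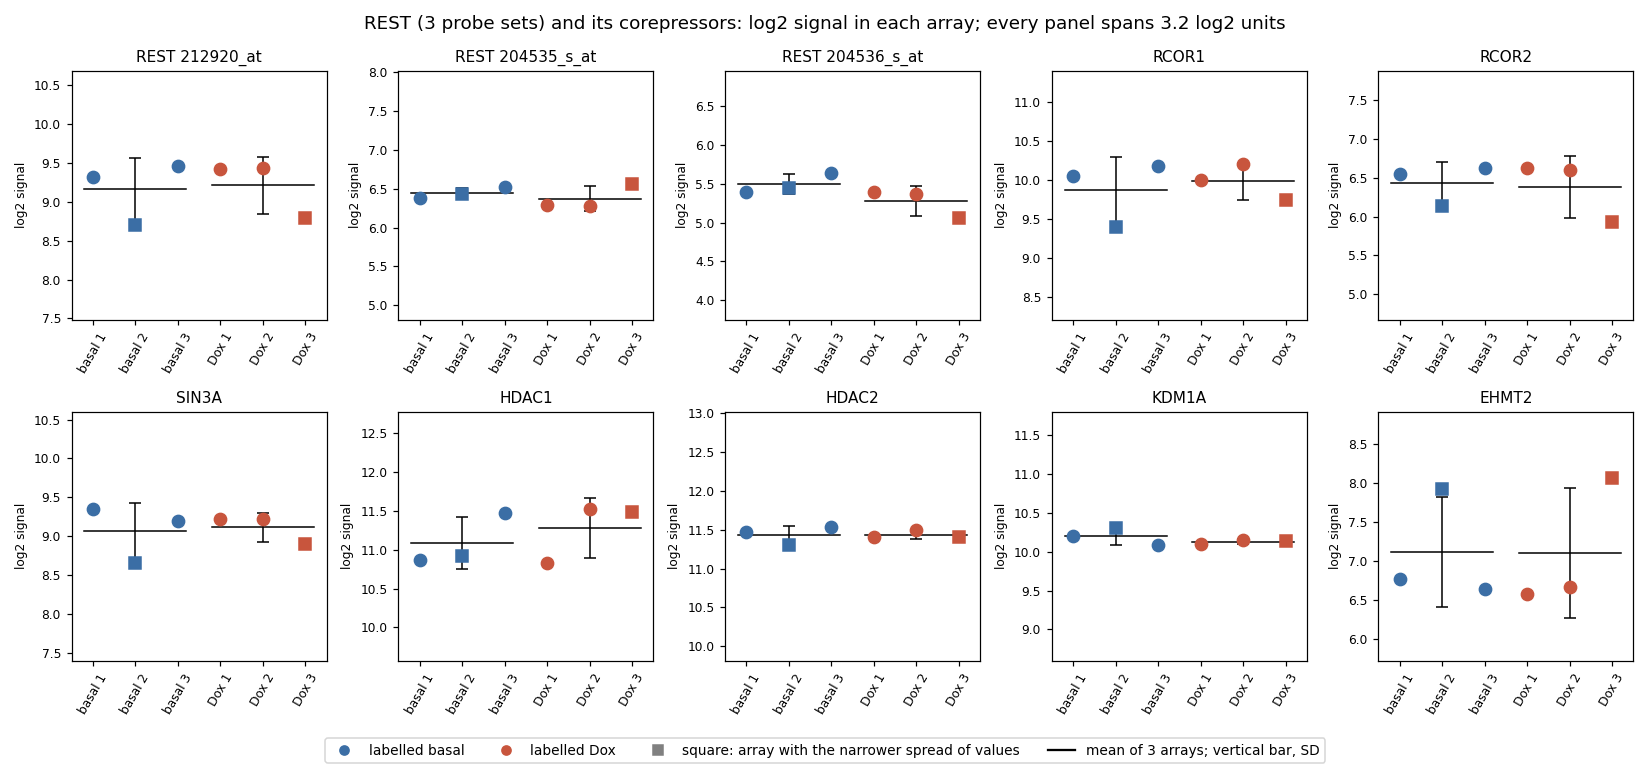
Log2 signal (y axis, 3.2 log2 units in every panel) of the 3 REST probe sets and of 7 corepressor genes in each of the 6 arrays (x axis). Blue is basal and red is Dox by label, squares are the narrow arrays basal 2 and Dox 3, horizontal lines are means of 3 arrays and vertical bars are SDs. The squares are lowest for REST 212920_at, RCOR1, RCOR2 and SIN3A and highest for EHMT2, and HDAC1 has points of both colours at its low and high level.

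Secretory granule genes varied most through CHGB. Chromogranin B, its product, is an acidic protein packed into dense-core granules. CHGB was at 9.11, 7.46 and 8.14 in basal 1 to 3 and at 9.11, 8.10 and 6.98 in Dox 1 to 3. The values lay at 3 levels, each holding both labels, high in basal 1 and Dox 1, intermediate in basal 3 and Dox 2 and low in the narrow arrays. The label means were 8.24 ± 0.83 and 8.06 ± 1.06 (SD, n = 3 each), and their difference was -0.18 ± 0.61. Without basal 3 and Dox 1 the difference was -0.75 ± 0.15 (adjusted p = 0.00881), 1.68-fold lower, and without basal 1 and Dox 2 it was 0.24 ± 0.40. Within 1 label, basal 3 and basal 1 were further apart in CHGB than Dox 1 and basal 1, which differed by -0.01.

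Of the other granule genes, SCG3 had the order of CHGB at a far dimmer signal and CHGA, VGF and PTPRN did not have it. CHGA, which encodes the related chromogranin A, stayed between 6.11 and 6.34 in all arrays, with a labelled difference of -0.03 ± 0.11. VGF, the source of several neuropeptides and a gene with an RE1-like stretch at a start site, stayed between 7.23 and 7.51 (difference 0.01 ± 0.13). Its probe set is of a type that may also read related transcripts. PTPRN, a granule membrane protein, ranged from 5.94 to 6.27 (difference -0.09 ± 0.12). SCG3, a further granin, was at 4.32, 3.65 and 3.99 in basal 1 to 3 and at 4.33, 4.22 and 3.78 in Dox 1 to 3, highest in basal 1 and Dox 1 and lowest in the narrow arrays. SCG2, another granin, ranged from 3.26 to 3.97 and was also lowest in the narrow arrays. Both were below the median of every array, so no level above background was shown for either, and their labelled differences were 0.12 ± 0.21 and 0.08 ± 0.21.

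RAB3C was the most variable of the 38 genes, with a range of 2.62 over the 6 arrays. It encodes a small GTPase on secretory vesicles. Its brightest probe set, 229300_at, was at 9.33, 7.35 and 8.59 in basal 1 to 3 and at 9.23, 8.51 and 6.72 in Dox 1 to 3. The order of the arrays was close to that of CHGB, with basal 1 and Dox 1 at the top and the narrow arrays at the bottom. The labelled difference of -0.28 ± 0.73 was far inside the spread between arrays, with SDs of 1.00 and 1.29 (n = 3 each). It was -0.73 ± 0.13 without basal 3 and Dox 1 (adjusted p = 0.00375), 1.66-fold lower, and without basal 1 and Dox 2 it was 0.00 ± 0.36.

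The other probe sets of RAB3C were dimmer. In 242328_at the values were 7.16, 6.20 and 6.59 in basal 1 to 3 and 7.25, 6.70 and 5.92 in Dox 1 to 3, the same order with a smaller range. Probe set 244170_at was at 6.90, 4.60 and 6.51 in basal 1 to 3 and at 6.79, 6.47 and 4.44 in Dox 1 to 3, where the narrow arrays fell below the array median. The dimmest, 241977_s_at, stayed between 4.59 and 5.07, below the median of every array. Without basal 3 and Dox 1 these 3 gave -0.37 ± 0.14, -0.29 ± 0.14 and -0.38 ± 0.14, and their adjusted p-values of 0.19, 0.365 and 0.177 did not pass. All 4 probe sets were negative in that comparison, and 1 of 4 was called.

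CHGB and RAB3C shared their order with a gene outside the neuronal programme. COL3A1, a fibrillar collagen gene from the list of stromal, endothelial, blood and glial markers, was at 8.75, 5.98 and 7.09 in basal 1 to 3 and at 8.74, 7.08 and 5.47 in Dox 1 to 3. Of that list of 16, 13 were measured, and 6 lay below the median of every array, LUM and PTPRC among them. COL3A1 was the only one called without basal 3 and Dox 1 (-1.09 ± 0.22, adjusted p = 0.00924), where 3.58% of all genes were called lower. The summed signal of the list, as log2, was 10.09 in basal 1 and 10.09 in Dox 1 and between 9.66 and 9.73 in the others. The higher sum in basal 1 and Dox 1 went with COL3A1, while the mean log2 signal of the list lay between 5.33 and 5.43 in all arrays. DCN and COL1A1, also stromal, were instead lowest in basal 1 and Dox 1, DCN at 5.51 in both against 5.80 to 6.45 in the others and COL1A1 at 7.76 and 7.79 against 7.86 to 8.17. The part of the list in the CHGB and RAB3C values was not tested.

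Among the other genes of vesicles and exocytosis none was called. SNAP25, a SNARE protein that drives vesicle fusion, was at 8.48, 8.05 and 8.19 in basal 1 to 3 and at 8.55, 8.19 and 7.74 in Dox 1 to 3. Basal 1 and Dox 1 were again the highest, and the difference was -0.08 ± 0.23 over all arrays and -0.30 ± 0.12 without basal 3 and Dox 1 (adjusted p = 0.216). SYP, an abundant membrane protein of synaptic vesicles, was at 6.81, 6.92 and 7.09 in basal 1 to 3 and at 6.81, 7.11 and 7.45 in Dox 1 to 3. Its highest value was in Dox 3 and its 2 lowest were basal 1 and Dox 1. Its difference was 0.18 ± 0.19 over all arrays, and 0.41 ± 0.13 without basal 3 and Dox 1 did not pass (adjusted p = 0.0969).

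In their brightest probe sets the remaining vesicle genes differed by at most 0.06 between the labelled groups. SYT1 and SYT4, calcium sensors of exocytosis, had differences of -0.01 ± 0.13 and 0.06 ± 0.12. SYN1, which tethers synaptic vesicles and carries an RE1-like stretch before its start site, ranged from 5.60 to 6.16 (difference -0.04 ± 0.16). UNC13A, a priming factor, was at -0.02 ± 0.17 and CPLX2, a SNARE-binding complexin, at 0.05 ± 0.16. Of these 5 genes, CPLX2 was below the array median in 1 array and the others were above it in all.

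Ion channel and receptor genes held no call, and SCN2A varied most among them. SCN2A, a neuronal voltage-gated sodium channel and a classical REST target, was at 6.59, 5.28 and 5.81 in basal 1 to 3 and at 6.33, 5.81 and 5.22 in Dox 1 to 3. The levels were ordered as in CHGB, with the narrow arrays below the array median. Its labelled difference was -0.11 ± 0.39, and without basal 3 and Dox 1 it was -0.42 ± 0.17 (adjusted p = 0.205). A second probe set, 206381_at, lay at 4.07 to 4.73, below every array median, and was not low in the narrow arrays. SCN3B, an auxiliary sodium channel subunit, was at 5.92, 5.92 and 5.61 in basal 1 to 3 and at 6.00, 5.24 and 5.64 in Dox 1 to 3. Its difference was -0.19 ± 0.20 over all arrays and -0.48 ± 0.14 without basal 3 and Dox 1 (adjusted p = 0.0752). The second SCN3B probe set, 204723_at, was at 6.20, 5.25 and 5.39 in basal 1 to 3 and at 6.27, 5.56 and 5.05 in Dox 1 to 3. These levels were ordered as in CHGB, and 4 of 6 arrays were below their median. The labelled difference of 204723_at was 0.01 ± 0.36, and without basal 3 and Dox 1 it was -0.42 ± 0.15 (adjusted p = 0.164).

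GRIA2, an AMPA receptor subunit and the gene whose window held the exact RE1 letters, was at 6.42, 5.92 and 6.91 in basal 1 to 3 and at 6.39, 6.72 and 6.50 in Dox 1 to 3. Basal arrays held both the highest and the lowest value, and the difference was 0.12 ± 0.25. Without basal 3 and Dox 1 it was 0.44 ± 0.13 (adjusted p = 0.0838). In their brightest probe sets the 3 genes with an RE1-like stretch thus had labelled differences of 0.12, -0.04 and 0.01, none of them called. A dimmer SYN1 probe set, 1553264_a_at, had the opposite sign, 0.185 ± 0.155. Dimmer GRIA2 probe sets, 236538_at and 241172_at, gave -0.01 ± 0.33 and -0.01 ± 0.10, and none of these was called. GRIN1, an NMDA receptor subunit, stayed between 6.60 and 6.95 (difference -0.04 ± 0.13). A dimmer GRIN1 probe set, 205914_s_at, had all Dox arrays below all basal arrays, with a difference in means of -0.25 ± 0.13 (exact permutation p = 0.1, n = 3 each). Its closest pair, basal 3 at 5.02 and Dox 2 at 5.01, nearly met, and it was below the median of every array. The other 4 of the 5 probe sets of the gene were of a type that may read related transcripts. CHRNB2, a nicotinic receptor subunit, differed by -0.16 ± 0.14. GLRA1, a glycine receptor subunit, was below every array median, at 3.92 to 4.20.

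Of the genes of cytoskeleton and adhesion, TUBB3 was called in 1 comparison. TUBB3, the neuronal beta-tubulin, was at 11.82, 11.99 and 11.99 in basal 1 to 3 and at 11.96, 12.06 and 12.33 in Dox 1 to 3. Only 1 Dox array, Dox 1, lay below any basal array, and the labelled difference was 0.18 ± 0.12 (exact permutation p = 0.3, n = 3 each). It was 0.29 ± 0.08 without basal 3 and Dox 1 (adjusted p = 0.0393), 1.23-fold higher, and without basal 1 and Dox 2 it was 0.16 ± 0.14. The second TUBB3 probe set, 213476_x_at, gave 0.23 ± 0.13 over all arrays and 0.41 ± 0.08 without basal 3 and Dox 1 (adjusted p = 0.00976). TUBB3 was positive in all 3 comparisons in both probe sets, but all 3 hold basal 2 and Dox 3, so the shared sign is not repeated support. In the brightest probe set, 202154_x_at, Dox 3 was 0.35 above basal 2, while basal 3 was 0.04 above Dox 1. Both probe sets are of the type that may also read other tubulin transcripts. When the fit was made over probe sets in place of genes, 202154_x_at had an adjusted p of 0.057.

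STMN2, which destabilises microtubules in growing axons, was below every array median at 4.16 to 4.66 (difference 0.11 ± 0.15). INA, a neuronal intermediate filament, ranged from 5.69 to 6.15 and L1CAM, a neuronal adhesion molecule, from 6.14 to 6.36, with differences of -0.05 ± 0.16 and 0.06 ± 0.11. In both the narrow arrays were the highest. CELSR3, an adhesion receptor that guides axons, was at 9.26 to 9.94 (difference 0.11 ± 0.20), with its lowest values in the narrow arrays.

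Signalling and other neuronal genes were the flattest group, with labelled differences from -0.05 to 0.06 and none called. BDNF, a neurotrophin, was at 6.32, 6.54 and 6.55 in basal 1 to 3 and at 6.41, 6.71 and 6.14 in Dox 1 to 3 (difference -0.05 ± 0.17). RUNDC3A, a protein that binds Rap GTPases, differed by -0.02 ± 0.15. HPCA, a neuronal calcium sensor, differed by 0.06 ± 0.11. ACTL6B, the neuronal actin-like subunit of BAF chromatin remodellers, and SEZ6, a membrane protein of dendrites, were each below the median in 5 of 6 arrays and differed by -0.02 ± 0.15 and 0.00 ± 0.11.

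**Figure D3:**
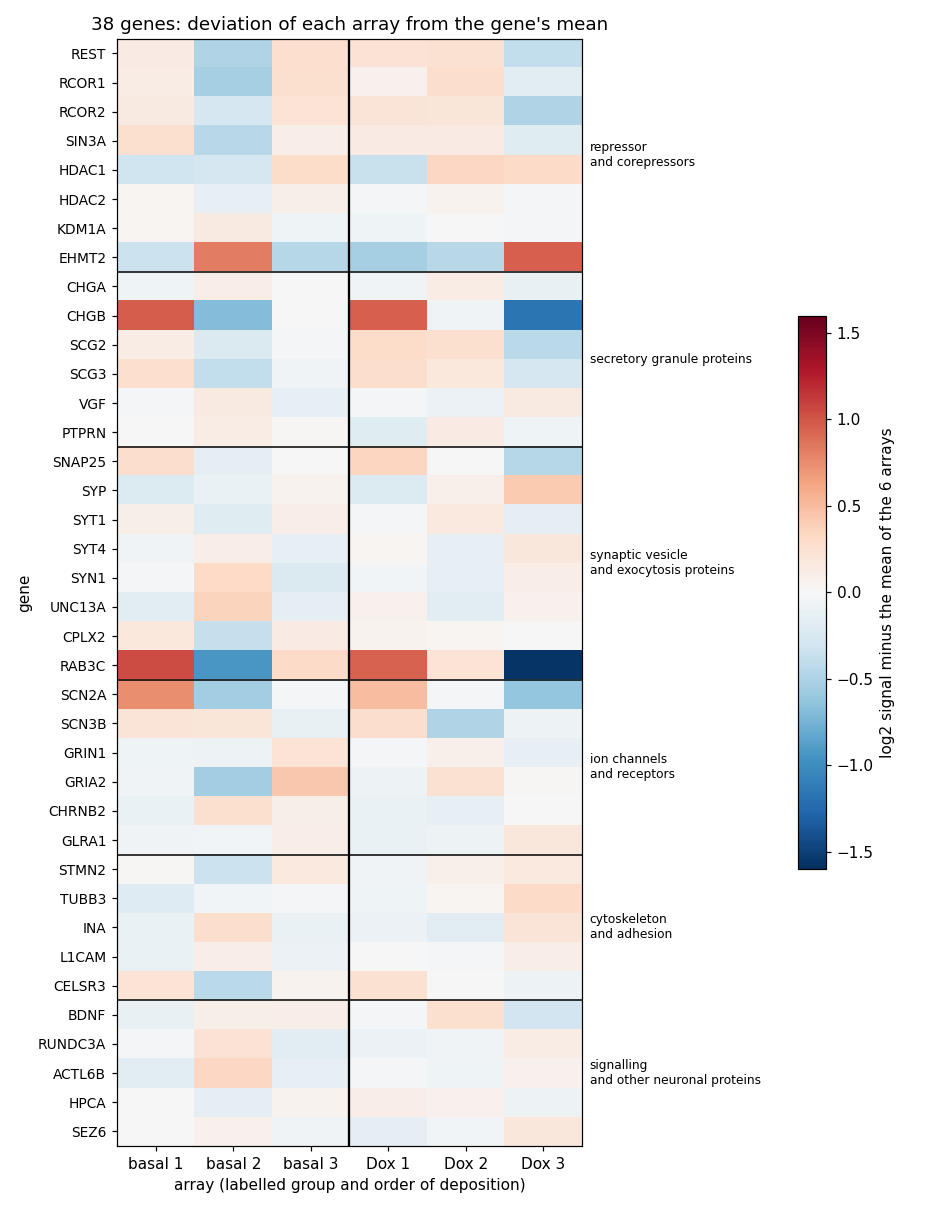
Log2 signal minus the mean of the 6 arrays (colour) for the 38 genes (rows, grouped by role) in the 6 arrays (columns, basal left of the line and Dox right of it). CHGB, RAB3C and SCN2A are red in basal 1 and Dox 1 and blue in the narrow arrays basal 2 and Dox 3, and EHMT2 is the reverse in the narrow arrays.

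Taking the genes as 1 group, 29 of 38 (76.3%) were above the array median in all 6 arrays, against 62.7% of all genes. Another 4, SCG2, SCG3, GLRA1 and STMN2, were below it in all 6. The range over the 6 arrays had a median of 0.54 in the 38 genes and 0.45 in all genes. In the brightest probe set of each gene, a range of at least 1 was reached by RAB3C, CHGB, EHMT2 and SCN2A, 4 of 38 (10.5%) against 9.29% of all genes. The narrow arrays both lay below the 4 others in 16 of the 38 genes, where 26.6% of all genes did, and both above them in 9, where 25.4% of all genes did. Dox 1 and basal 1 differed by at most 0.26 in any of the 38 genes, and Dox 2 and basal 3 by at most 0.36, in SCN3B.

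**Figure D4:**
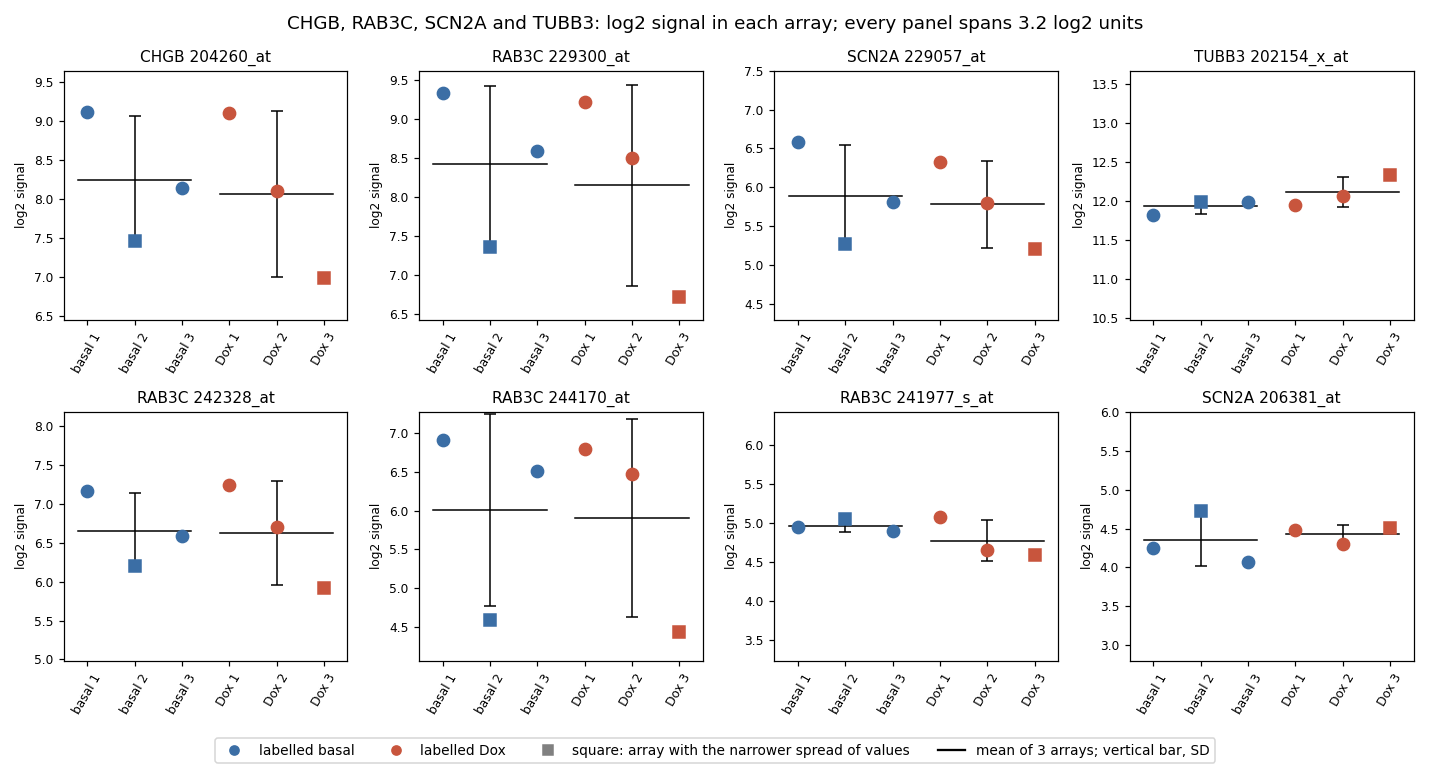
Log2 signal (y axis, 3.2 log2 units in every panel) of CHGB, of the 4 probe sets of RAB3C, of both probe sets of SCN2A and of the brightest TUBB3 probe set in each array (x axis). Colours, squares, lines and bars are as for the REST plot. In CHGB, in 3 RAB3C probe sets and in the brighter SCN2A probe set, each level holds 1 blue and 1 red point, and the 2 dim probe sets in the lower row lack this order.

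Probe sets of 1 gene did not always have the same sign. Of the 24 genes with several probe sets, 12 had labelled differences of both signs, none of them called. Among all 73 probe sets of the 38 genes, 0 passed in the labelled comparison and 4 passed without basal 3 and Dox 1, those of HDAC1, CHGB, RAB3C and TUBB3 named above. Over genes, 3.42% were called higher and 3.58% lower in that comparison. The share of all 41091 probe sets that passed there was not counted, so the 4 are not read as a result about these genes.

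Genes of the wider REST pathway were read in the same fits. Of 39 further partners and regulators of REST, from SIN3B and RCOR3 to the polycomb genes EZH2 and SUZ12, 36 were measured and 0 were called in any direction in the labelled comparison or without basal 3 and Dox 1. Their median differences were 0.01 and 0.00. Of 20 other genes that the study lists as raised on REST knockdown on separate arrays of these cells, 18 were measured. Of these 18, 0 were called by label, and in the comparison without basal 3 and Dox 1 CPNE4 was higher (0.87 ± 0.15, adjusted p = 0.00387) and 3 were lower. Of all genes, 3.42% were called higher and 3.58% lower in that comparison.

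The 3 lower genes of that list had large ranges. CALB1, a calcium-binding protein of neurons, was at 10.68, 9.50 and 9.18 in basal 1 to 3 and at 10.64, 9.15 and 7.88 in Dox 1 to 3. Its difference without basal 3 and Dox 1 was -1.58 ± 0.11 (adjusted p = 7.85e-06). CYP19A1, the aromatase that makes oestrogens, had a difference of -1.52 ± 0.15 (adjusted p = 7.23e-05) and MARCHF11, an E3 ubiquitin ligase, -0.88 ± 0.15 (adjusted p = 0.00358). Without basal 1 and Dox 2 the same genes were at -0.08 ± 0.79, -0.11 ± 0.84 and -0.19 ± 0.50.

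Of 30 other neuronal and neuroendocrine genes 25 were measured, and 0 were called by label. Without basal 3 and Dox 1, where 3.42% of all genes were called higher and 3.58% lower, 2 of the 25 were higher and 4 lower. The largest difference was in INSM1, whose zinc finger product acts in neuroendocrine differentiation. It was at 4.85, 4.51 and 7.61 in basal 1 to 3 and at 4.91, 7.59 and 7.44 in Dox 1 to 3. Those are the same low and high arrays as in HDAC1, and each label was on both sides. Its difference was 2.83 ± 0.13 without basal 3 and Dox 1 (adjusted p = 5.35e-07) and 0.12 ± 1.41 without basal 1 and Dox 2. CADPS, a priming factor of dense-core granules, was at -0.94 ± 0.11 in the first of these comparisons (adjusted p = 0.000312). NEFM, a neurofilament, was at -0.95 ± 0.15 (adjusted p = 0.00268), and GAP43, a growth cone protein, at -0.83 ± 0.13 (adjusted p = 0.00218). NEFM followed the order of CHGB and RAB3C, at 9.45, 7.55 and 8.20 in basal 1 to 3 and at 9.43, 8.18 and 6.92 in Dox 1 to 3.

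Among markers of the other cell types and states, no list held a call by label. Of 9 measured markers of the adrenal medulla, the neuroendocrine tissue beside the cortex, 0 were called, and TH stayed between 3.64 and 3.73 in all arrays. Of 9 adrenocortical markers 2 were called lower without basal 3 and Dox 1, where 3.58% of all genes were. They were HSD3B2, by -1.40 ± 0.18 (adjusted p = 0.000513), and STAR, by -0.54 ± 0.09 (adjusted p = 0.00226). NR5A1 and CYP11A1 went the other way, by 0.43 ± 0.13 and 0.30 ± 0.09, and did not pass (adjusted p = 0.0808 and 0.0643). CYP17A1, FDX1, MC2R, SCARB1 and INHA had negative differences that did not pass. None of 10 reference and RNA quality genes was called, and their mean signal lay between 11.20 and 11.30 in every array.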

How the data were processed

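The deposited values were log2 signals, 1 for each probe set in each of 6 arrays. According to the submitters' notes they were computed with GCRMA, which corrects background by probe sequence, and the methods name Affymetrix console software. Whether all arrays were normalized together is not given in the sources used here. No detection calls were used, and the values were not scaled again. Per the study, each condition had 3 biological replicates, and no pairing was named.

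The platform annotation gave exactly 1 symbol for 41091 of 54613 probe sets, and only those were used. For each of 19775 genes the brightest probe set on average was taken, regardless of label, and all 3 REST probe sets were kept and fitted with the 41091. Groups were compared with limma 3.58.1 (lmFit and eBayes with trend, R 4.3.3), two-sided, with Benjamini-Hochberg adjustment over all genes and a threshold of 0.05. Exact permutation tests ran over the 6 arrays. The script was tested on simulated data for its arithmetic only. Noise there came from the spread between basal 1 and Dox 1, a near-identical pair, with no narrow arrays. That test therefore does not show what could be detected in the real arrays. Alternatives left out arrays, added blocks or array weights, or changed the scaling, the filter on low values and the choice of probe set.

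The 38 genes and the further gene lists were chosen with earlier results of these data known. All 38 genes are named, and values in every array are given for REST, for genes called without basal 3 and Dox 1, for those with a range of at least 1, and for some others chosen after their values were seen. In each further list, up to 4 called genes with the smallest adjusted p are named. Promoter windows were taken from RefSeq (GRCh38.p14). Python 3.11.15 and matplotlib 3.10.9 made the figures.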

Additional observations from a re-analysis of the deposited data

How the results depend on the processing

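Over all genes 0 were called in each direction in the labelled comparison and in every alternative but 1. Leaving out basal replicate 3 and Dox replicate 1 with the array set as a block gave 676 genes higher and 707 lower, and 2 and 2 of the 38 genes. That alternative was built from these data, and the matching one without basal replicate 1 and Dox replicate 2 gave 0. The same 4 arrays with no block gave 0 (with 837 genes under an unadjusted p of 0.05 and 0.0687 as the lowest adjusted p), and with the style of the sample titles as a block 0 (1070 unadjusted). Leaving out 1 array at a time gave 0 to 0 calls. It moved the REST difference between -0.17 and 0.27 in 212920_at, between -0.16 and -0.02 in 204535_s_at and between -0.28 and -0.11 in 204536_s_at, and NR5A1 between -0.14 and 0.29. Of 41 differences (38 genes, 2 further REST probe sets and NR5A1), none called, 6 to 18 changed sign when 1 array was left out, 11 with array weights, 3 with quantile normalization, 1 with arrays shifted to the same median and 0 without the trend. Leaving out basal 2 and Dox 3 was added after the data were examined, and 15 changed sign. No paired analysis was possible because the labels give no replicate numbers shared by the groups. With 3 arrays a label and 0.1 as the smallest exact p, small differences in these genes were not detectable.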
